A study of Mus musculus with 10 samples.

Results

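The BCL2 family decides, at the mitochondrial membrane, whether a cell lives or dies. Pro-survival members (Bcl2, Bcl2l1, Bcl2l2 and Mcl1) hold the effectors Bax and Bak1 in check, and BH3-only members (Bcl2l11, Bik, Bid and Bbc3) bind the pro-survival proteins or the effectors and tip the balance towards death. Natural killer cells (NKC) live on IL-2 and IL-15, cytokines that share receptor chains, and in mouse NKC survival in IL-15 is known to need Mcl1 and to be opposed by Bcl2l11. RNA of 10 listed family genes was examined in NKC that lack Runx3, a transcription factor of the RUNX family, and in wild-type NKC. Every probe set that the array annotation ties to one of these symbols was taken, 33 of the 45101 on the array, and the probe set with the highest mean over the 10 arrays stood for the gene. This gave 9 genes of 18194 named on the array. Bax was not analysed here, since no probe set in the annotation used carries its symbol.

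Spleen NKC came from ICR mice aged 6 weeks, each sample from its own mouse, with the sex given as male or female. WT mice were Runx3 +/+ and KO mice Runx3 -/-, and each genotype was measured on 3 arrays after culture in IL-2 and on 2 arrays after culture in IL-15, which makes 4 groups. The genotype is that of the mouse as a whole, not of the NKC alone. NKC were enriched by negative selection, per the methods also sorted for DX5, and kept for 7 days in 1000 u/ml human IL-2 or in mouse IL-15, so all groups had been cultured with a cytokine. Values are log2 GC-RMA signals of Affymetrix arrays, and the number of arrays limits their precision. All 9 genes reached log2 5 in at least 2 arrays, which was the requirement for testing and was met by 9391 genes in all.

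A pair of properties touches every value. First, WT and KO arrays of 1 number had the same sum in every numbered pair of a cytokine, to within 0.00014 for all 45101 probe sets, so differences between pairs had been removed before deposit, and WT and KO values of a pair lie at equal distances below and above 1 shared mean. Comparisons of KO with WT were therefore made within pairs. For a probe set, WT and KO arrays of a cytokine then fail to overlap exactly when all its pairs differ in the same direction. An absence of overlap between WT and KO thus adds nothing to the pair directions, and in IL-15 it needs only that 2 pairs agree. Second, the sex-linked RNA Xist averaged 5.10 (WT) and 4.92 (KO) in IL-2 but 14.38 (WT) and 14.56 (KO) in IL-15, and the Y-linked Eif2s3y had means of 8.60 and 7.88 in IL-2 but 2.42 and 2.36 in IL-15. Cytokine and sex of the mice cannot be told apart in this series. Arrays of a group correlated at 0.972 to 0.984 and arrays of different groups at 0.794 to 0.939 over tested genes. The Runx3 probe set was lower in KO by 0.58 ± 0.76 (SD of 3 pairs, log2) in IL-2 and by 1.09 ± 0.09 (SD of 2 pairs) in IL-15, neither of which passed the test (limma adjusted p = 0.254 and 0.293). Where its probes lie relative to the deletion is not known, so it does not check the genotype.

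Of 10 named NKC markers, 9 reached log2 5. The log2 of the summed level of NKC markers was lower in KO without overlap in both cytokines. It was 16.77 to 16.99 in KO against 17.01 to 17.26 in WT in IL-2, and 16.75 to 16.82 against 17.15 to 17.22 in IL-15. Linear levels were summed, so the brightest markers weigh most, and the sum does not show that the markers fell in general. The median KO minus WT difference of the 9 tested markers was 0.10 in IL-2, against 0.11 over all tested genes. In IL-15 these medians were -0.34 and -0.01. In IL-2, Ncr1 rose by 2.11 and Tbx21 by 1.42 in KO, and Prf1 fell by 1.73 (limma adjusted p = 0.017, 0.026 and 0.022). Itga2, which encodes the DX5 antigen, stayed below log2 5 in every array. The summed mast cell and basophil markers were lower in KO, at 6.74 to 8.24 against 12.32 to 14.45 in IL-2. In IL-15 the sum was 5.67 to 5.84 in KO against 9.53 to 10.35 in WT. Of 6 markers, 2 (Mcpt8 and Cpa3) reached log2 5 in any array, with Fcer1a, Ms4a2, Hdc and Gata2 below it in all. Mcpt8 made up most of the WT sums, so these do not show a fall of the markers in general. In IL-2, Mcpt8 fell by 6.63 in KO and Cpa3 by 1.24 (limma adjusted p = 0.005 and 0.075). In IL-15 both genes fell, by 7.02 and 3.03 (limma adjusted p = 0.036 and 0.048), to KO values below log2 5. The summed B cell markers were higher in KO in IL-2, at 11.16 to 11.18 against 8.77 to 8.89, with 2 of 6 markers (Blk and Ighm) at log2 5 and Cd79a, Cd79b, Ms4a1 and Pax5 below it in all. In IL-15 they were higher in KO as well, at 10.75 to 11.67 against 9.83 to 10.74, where the nearest values almost met. T cell markers summed to 11.23 to 12.05 in IL-2 and 12.30 to 12.85 in IL-15, with 4 of 8 at log2 5 and Cd4, Cd8a, Cd8b1 and Cd5 below it in all arrays, and markers of macrophages and dendritic cells summed to 8.28 to 11.53, with 8 of 9 at log2 5. The part of other cells in the results on the BCL2 family was not tested. In bulk RNA, fewer cells of a type and less RNA per cell cannot be told apart.

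Runx3 binds DNA at short RUNX motifs, and the promoter sequence shows where such letters lie for 2 members described further on. The motif was searched on both strands as TGTGGT and, with a changed last letter, as TGTGGC, and further, with a changed inner letter, as TGCGGT and, with both letters changed, as TGCGGC, in windows of RefSeq (GRCm38.p6) from 250 bases before to 50 bases after each annotated start site. The table used lists windows for 9 of the 10 family genes, Bax included and Bik not. The motif was found in 8 of their 14 windows, and 45.2% of all 32851 windows hold it. Shown are Bcl2l2, the member with the largest KO minus WT difference after Bik in IL-2, and Bcl2l11, whose 5 probe sets were all lower in KO in IL-15. Capitals mark the motif, and bases inside the annotated gene are left out.
Bcl2l2, chr14:54883175-54883365 (+ strand), TGTGGC 133 bases before the start site: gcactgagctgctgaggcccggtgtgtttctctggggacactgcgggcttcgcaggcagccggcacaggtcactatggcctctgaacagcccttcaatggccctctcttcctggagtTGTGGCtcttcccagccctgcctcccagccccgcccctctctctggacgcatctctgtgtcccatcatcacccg
Bcl2l11, chr2:128125788-128126037 (+ strand), reverse complement of TGCGGT 30 bases before the start site: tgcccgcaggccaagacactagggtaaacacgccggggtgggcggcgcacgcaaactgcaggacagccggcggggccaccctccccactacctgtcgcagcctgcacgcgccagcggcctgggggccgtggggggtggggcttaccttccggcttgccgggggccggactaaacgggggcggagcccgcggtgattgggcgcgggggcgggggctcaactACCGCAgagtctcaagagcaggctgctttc
A match is a run of letters and not a measured binding site, and no binding was measured in these files.

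Across the family, 1 gene passed the test of KO against WT. Bik, a BH3-only death gene whose protein sits at the endoplasmic reticulum, rose in KO NKC in IL-2, and none of the 4 pro-survival genes, Bak1 or the other BH3-only genes passed the test in either cytokine. A gene was called when its adjusted p (limma with the pair as a block, Benjamini-Hochberg over 9391 genes) was under 0.05 and its difference at least 1.5-fold. In IL-2, 1 of 9 members was called, where 19.7% of all tested genes were, and the median KO minus WT difference was -0.07 over the members and 0.11 over all tested genes. In IL-15, 0 of 9 members were called, where 1.30% of all genes were, with medians of 0.17 and -0.01. Differences of KO from WT that were at least 1.5-fold with no overlap between arrays were found for 2 members in IL-2 (Bik and Bcl2l2), against 40.3% of all genes, and for 4 members in IL-15 (Bik, Bcl2l1, Bcl2l2 and Bbc3), against 28.0%. Because of the removed pair differences, no overlap means here only that all pairs of the cytokine had the same direction.

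**Figure D1:**
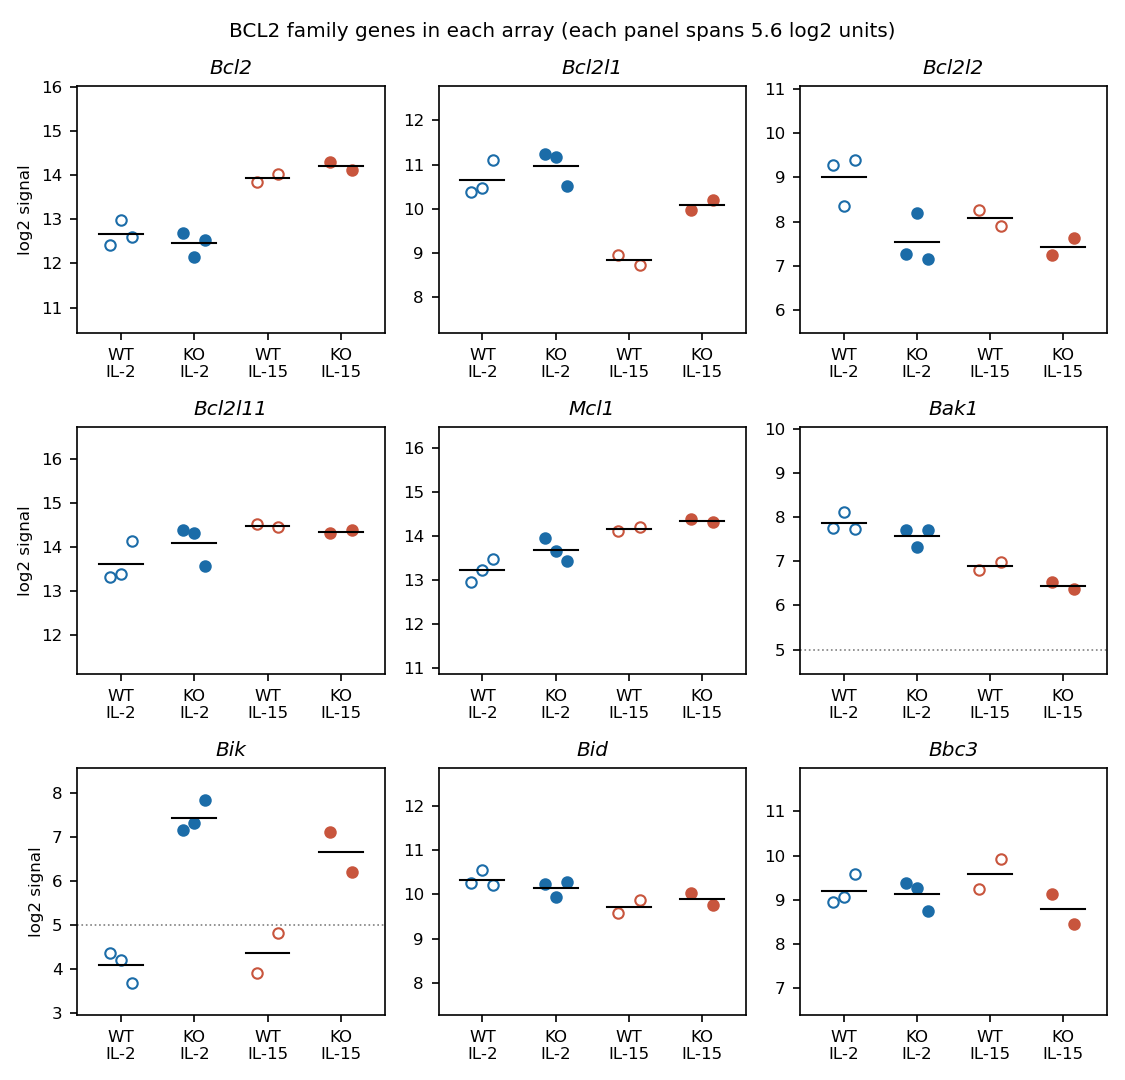
Log2 signal of 9 BCL2 family genes in each of the 10 arrays (open points WT, filled points KO, blue IL-2, red IL-15), with lines at group means and, where in range, a dotted line at log2 5. Every panel spans 5.6 log2 units on its own range, and only Bik shows KO arrays (6.20 to 7.83) far above WT arrays (3.69 to 4.81) in both cytokines.

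Bik was below the level of log2 5 in all WT arrays and above it in all KO arrays, so it met the requirement for testing through its KO arrays alone. In IL-2 its log2 signal was 4.37, 4.20 and 3.69 in WT and 7.16, 7.32 and 7.83 in KO. In IL-15 it was 3.90 and 4.81 in WT and 7.10 and 6.20 in KO. The KO arrays thus lay apart from the WT arrays in both cytokines, with the nearest pair of values in IL-15. KO minus WT was 3.35 ± 0.71 (SD, 3 pairs, higher in 3 of 3) in IL-2, an increase of at least 5.42-fold over the log2 5 level, and passed the test (limma adjusted p = 0.005). In IL-15 it was 2.29 ± 1.29 (SD, 2 pairs, higher in 2 of 2), at least 3.14-fold, and missed the threshold (limma adjusted p = 0.108). The IL-15 effect was smaller than the IL-2 effect by 1.06 on the log2 scale, with a 95% interval of the IL-15 minus IL-2 difference from -2.67 to 0.54 (limma adjusted p = 0.567), so the cytokines were not shown to differ in this respect.

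A second Bik probe set, 1449836_x_at, also had higher KO values. Its signal in IL-2 was 3.01, 4.27 and 3.51 in WT and 5.81, 4.56 and 5.31 in KO. KO arrays were above WT arrays without overlap, by 1.63 ± 1.26 (SD, 3 pairs, limma adjusted p = 0.052 among 15758 probe sets tested one by one). Only 2 arrays, both of KO in IL-2, reached log2 5, so this probe set was tested only through the group where it was high. In IL-15 the difference was 1.09 ± 0.15 (SD, 2 pairs) and all 4 arrays were below log2 5. The third Bik probe set was below the level for testing. The Bik call in IL-2 held under all other settings tried, with differences of 1.74 to 3.64 and a highest adjusted p of 0.044. In the same comparison both tested B cell markers rose, Blk by 5.49 ± 1.12 and Ighm by 2.26 ± 0.16 (SD, 3 pairs, limma adjusted p = 0.001 and 0.010). Of 8 tested markers of macrophages and dendritic cells, 2 rose (Cd74 by 4.55 ± 2.05 and H2-Aa by 2.64 ± 1.68) and 1 fell (Cd14 by 3.88 ± 2.92), with limma adjusted p of 0.008, 0.037 and 0.049. Blk reached log2 5 only in the KO arrays in IL-2 and Cd74 only in KO arrays, so both were tested only through groups where they were high. The B cell markers Cd79a, Cd79b, Ms4a1 and Pax5 were below log2 5 in every array. In IL-15, KO minus WT was 0.56 for Blk, 0.94 for Ighm, 2.59 for Cd74, 2.24 for H2-Aa and 0.08 for Cd14. None of these passed the test there (limma adjusted p of 0.234 or higher). Whether the marker RNAs that changed and Bik come from the same cells was not tested.

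**Figure D2:**
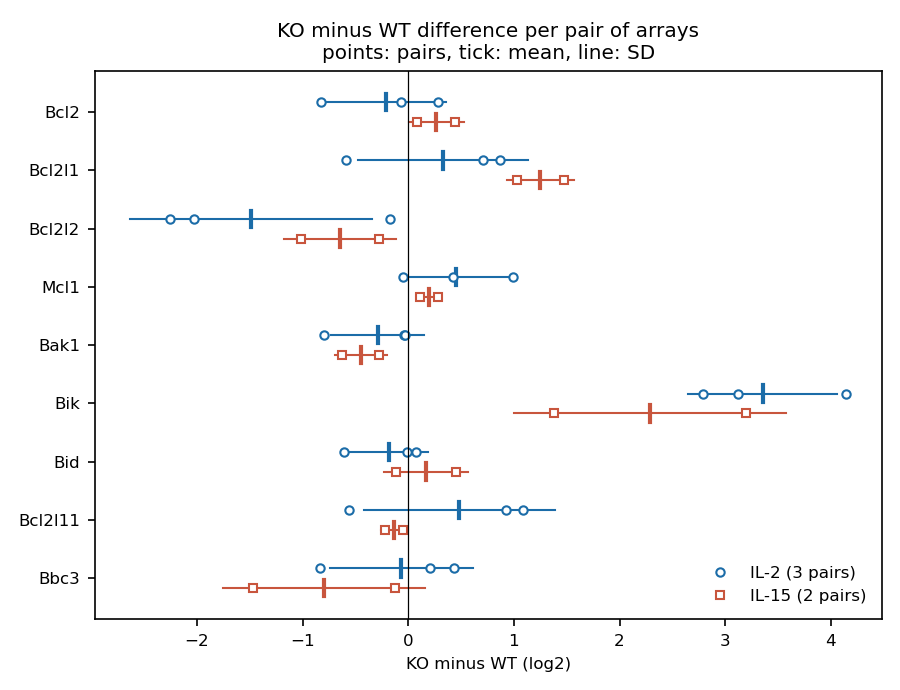
KO minus WT difference (log2) of 9 BCL2 family genes in each pair of arrays (circles IL-2, squares IL-15), with the mean as a tick and the SD as a line. Bik lies between 1.38 and 4.15 in all 5 pairs, Bcl2l2 and Bak1 are below 0 in all 5, and the other 6 genes have pairs on both sides of 0.

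Among the pro-survival genes, Bcl2l2, which encodes BCL-W, had the largest difference in IL-2. Its signal was 9.29, 8.36 and 9.40 in WT and 7.26, 8.19 and 7.15 in KO. All KO arrays were below all WT arrays, but in pair 2 by only 0.17. KO minus WT was -1.49 ± 1.14 (SD, 3 pairs), a 2.80-fold lower mean, with a 95% interval from -2.53 to -0.44 and an adjusted p of 0.057 (limma), which missed the threshold. The call depended on the setting. Without replicate 2 the difference was -2.14 with an adjusted p of 0.021 (limma), but without replicate 1 it was -1.21 and without replicate 3 it was -1.10, with adjusted p of 0.249 and 0.178. With all arrays, the adjusted p was 0.049 after centring each array on its median, 0.072 after quantile normalization and 0.193 without a filter on low values. In IL-15 the WT arrays read 8.26 and 7.89 and the KO arrays 7.24 and 7.62, a difference of -0.65 ± 0.53 (SD, 2 pairs, limma adjusted p = 0.701). The same direction was present in all 5 pairs, and the other 3 Bcl2l2 probe sets were below the level for testing.

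Bcl2l1, which encodes the survival protein BCL-XL, had its larger KO minus WT difference in IL-15, though neither cytokine passed the test. In IL-15 its signal was 8.94 and 8.72 in WT and 9.97 and 10.19 in KO. The groups did not overlap, and KO minus WT was 1.25 ± 0.32 (SD, 2 pairs), 2.38-fold, with a 95% interval from 0.245 to 2.26 that does not account for the number of genes and an adjusted p of 0.247 (limma). In IL-2 the WT arrays read 10.38, 10.46 and 11.11 and the KO arrays 11.25, 11.17 and 10.52. These overlapped, with 2 of 3 pairs higher in KO and a mean difference of 0.33 ± 0.80 (SD, 3 pairs, limma adjusted p = 0.534). The difference between the cytokines in the KO effect, 0.92 with a 95% interval from -0.38 to 2.22, missed the threshold as well (limma adjusted p = 0.543).

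Bcl2, the founding survival gene of the family, showed no KO effect past the test. In IL-2 its signal was 12.42, 12.98 and 12.60 in WT and 12.70, 12.15 and 12.53 in KO. The arrays overlapped, with KO minus WT of -0.21 ± 0.57 (SD, 3 pairs) and a 95% interval from -0.91 to 0.49 (limma adjusted p = 0.652). In IL-15 it was 0.26 ± 0.26 (SD, 2 pairs, higher in 2 of 2). Of its 5 probe sets, 4 were lower in KO in IL-2 on average and 5 of 5 were higher in KO in IL-15. Probe set 1422938_at, picked after its values were seen, was lower in KO by 0.78 ± 0.47 (SD, 3 of 3 pairs) in IL-2 and higher by 0.89 ± 0.70 (SD, 2 of 2 pairs) in IL-15. The test of the difference of these effects gave 1.67 with a 95% interval from 0.49 to 2.86 and an adjusted p of 0.338 (limma, 15758 probe sets).

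Mcl1, which encodes a short-lived survival protein, was measured by 6 probe sets, all well above log2 5. Its brightest one read 12.95, 13.23 and 13.47 in WT and 13.94, 13.66 and 13.42 in KO in IL-2. The groups overlapped slightly, with KO minus WT of 0.46 ± 0.52 (SD, 3 pairs), a 95% interval from -0.21 to 1.12 and an adjusted p of 0.286 (limma). Of the 6 probe sets, 5 were higher in KO in IL-2, by 0.20 to 0.65, and 1416881_at was lower by 0.25. In IL-15 the brightest probe set read 14.11 and 14.19 in WT and 14.39 and 14.30 in KO, a difference of 0.20 ± 0.12 (SD, 2 pairs, limma adjusted p = 0.891). No Mcl1 probe set was called in either cytokine.

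The effector that could be measured, Bak1, opens the outer mitochondrial membrane once freed. In IL-2 it read 7.75, 8.13 and 7.74 in WT and 7.71, 7.33 and 7.71 in KO. KO was lower in 3 of 3 pairs, with a mean difference of -0.29 ± 0.44 (SD) and a 95% interval from -0.93 to 0.36 (limma adjusted p = 0.481). In IL-15 it read 6.81 and 6.99 in WT and 6.54 and 6.36 in KO, lower by 0.45 ± 0.25 (SD, 2 pairs, limma adjusted p = 0.649).

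Bcl2l11, which encodes BIM, the BH3-only protein that NKC are known to keep in check through cytokine signals, gave different sizes of KO effect at its 5 probe sets. The brightest, 1456005_a_at, read 13.31, 13.39 and 14.13 in WT and 14.39, 14.31 and 13.57 in KO in IL-2, and 14.52 and 14.44 in WT and 14.30 and 14.39 in KO in IL-15. The groups overlapped in IL-2, where KO minus WT was 0.48 ± 0.91 (SD, 3 pairs, limma adjusted p = 0.378), and lay close together in IL-15, where it was -0.14 ± 0.12 (SD, 2 pairs). The dimmest tested probe set, 1426334_a_at, read 6.78 and 6.40 in WT and 3.47 and 3.84 in KO in IL-15. Both KO arrays were below log2 5, so KO was at least 3.01-fold lower, and the measured difference was -2.94 ± 0.53 (SD, 2 pairs, limma adjusted p = 0.107). Probe set 1435449_at, above log2 5 in all arrays, was 3.23-fold lower in KO in IL-15.

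All 5 Bcl2l11 probe sets were lower in KO in IL-15, by 0.14, 0.83, 0.90, 1.69 and 2.94 on the log2 scale, the last of these against KO arrays below log2 5, and 4 of 5 were higher in KO in IL-2 on average, by 0.48 to 0.69. At each of these 4 the IL-2 arrays overlapped, since 2 of 3 pairs were higher in KO and pair 3 was lower, by 0.24 to 0.72. The probe sets measure RNA of 1 gene in the same arrays and are not replicates. The KO effect in IL-15 minus that in IL-2 ran from -2.60 to -0.62 over the probe sets, with unadjusted p of 0.012 to 0.321 and no adjusted p under 0.338 (limma, 15758 probe sets). The gene value shown for Bcl2l11 is therefore the probe set with the smallest KO effect in IL-15. The mean of its probe sets gave -1.30 in IL-15 with an adjusted p of 0.307 (limma).

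**Figure D3:**
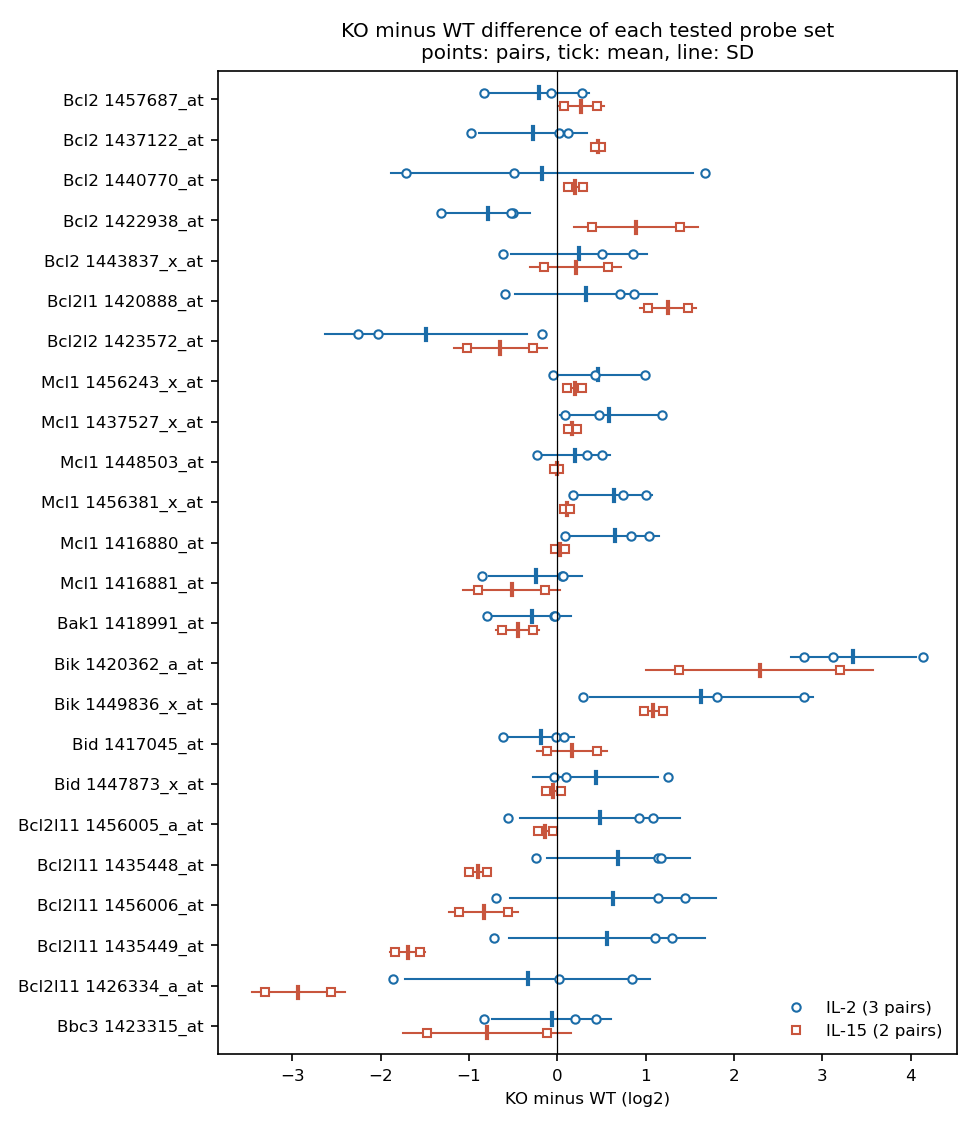
KO minus WT difference (log2) of each of the 24 tested probe sets of BCL2 family genes, as pairs (circles IL-2, squares IL-15), mean (tick) and SD (line), ordered by role and then by mean signal. The 5 Bcl2l11 probe sets lie from -0.14 to -2.94 in IL-15, and both Bik probe sets lie above 0 in both cytokines.

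The remaining BH3-only genes, Bid and Bbc3, were not called in either cytokine. Bid, which is cut by caspase-8 and links death receptors to the mitochondria, read 9.94 to 10.55 in the IL-2 arrays and 9.58 to 10.03 in the IL-15 arrays, with KO minus WT of -0.19 ± 0.37 (SD, 3 pairs) and 0.17 ± 0.40 (SD, 2 pairs). Bbc3, which encodes the p53 target PUMA, read 8.95, 9.07 and 9.58 in WT and 9.38, 9.27 and 8.75 in KO in IL-2, overlapping at a mean difference of -0.07 ± 0.67 (SD, 3 pairs, limma adjusted p = 0.917). In IL-15 Bbc3 read 9.25 and 9.92 in WT and 9.12 and 8.45 in KO. Both KO arrays were lower, with a difference of -0.80 ± 0.96 (SD, 2 pairs, limma adjusted p = 0.536). Over all 24 tested probe sets of the family, 1 was called in IL-2 (the Bik probe set described first), where 18.0% of all 15758 probe sets tested alone were, 0 were called in IL-15, where 0.781% were, and 0 for a difference between cytokines, where 0% were.

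For the difference between the KO effects in IL-15 and IL-2, 0 of 9 members and 0% of all tested genes were called (limma). Unadjusted (limma), 1106 of 9391 tested genes and 0 of 9 members had a p under 0.05, and 9 members are too few to tell from that share. The lowest member p was 0.136 (limma). With 2 pairs in IL-15 the intervals were wide, about as wide for Bik (-2.67 to 0.54) as for Bcl2l2 (-0.81 to 2.49).

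Levels in IL-15 against IL-2 were compared without a test, because the removal of pair differences leaves too small a spread, and the cytokine cannot be told apart from the sex of the mice. Apart here means a mean difference of at least 1.5-fold with no overlap between arrays. In WT, 7 of 9 members were apart, against 53.3% of all genes, and in KO, 5 of 9, against 51.4%. At the probe set that stood for each gene, Bcl2 and Mcl1 were higher in IL-15 in both genotypes, whereas Bcl2l1 and Bak1 were lower in both. Bcl2 differed by 1.28 in WT (2.42-fold) and 1.75 in KO (3.36-fold), and Mcl1 by 0.93 and 0.67.

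Bcl2l1 was lower in IL-15 by 1.82 in WT (3.53-fold) and by 0.90 in KO (1.86-fold), and Bak1 by 0.97 and 1.13. These 4 genes thus moved in the same direction in KO as in WT. In WT alone, Bcl2l11 was higher by 0.87, and Bcl2l2 and Bid were lower by 0.94 and 0.61. In KO these 3 differed by 0.25, -0.10 and -0.26 and were not apart. Bik was lower in IL-15 by 0.79 in KO, and its WT arrays were below log2 5 in both cytokines. Bcl2 probe sets were not alike here, since 4 of 5 were higher in IL-15 in WT and 1422938_at was lower by 0.85, whereas in KO 5 of 5 were higher. Nor were those of Mcl1, of which 5 of 6 were higher in IL-15 in each genotype. Of these, 1448503_at overlapped, at 0.22 in WT and 0.01 in KO, and the remaining probe set, 1416881_at, was lower by 0.21 and 0.48. Quantile normalization moved the median of all genes from 0.18 to -0.05 in WT and from -0.08 to -0.20 in KO, and the directions given for Bcl2, Mcl1, Bcl2l1 and Bak1 held under it.

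**Figure D4:**
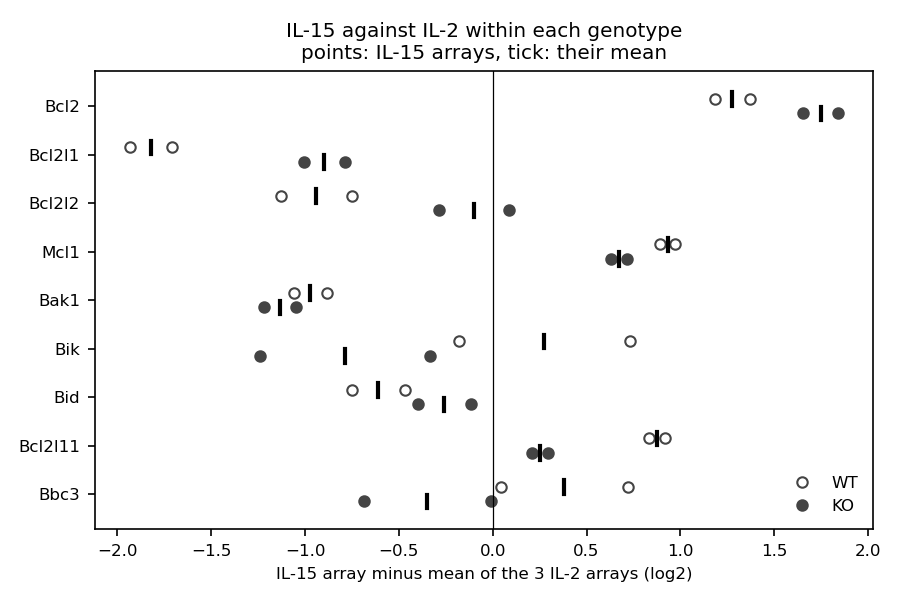
Log2 signal of each IL-15 array minus the mean of the 3 IL-2 arrays of the same genotype (open points WT, filled points KO, tick for their mean) for 9 BCL2 family genes. Bcl2 and Mcl1 lie to the right of 0 and Bcl2l1 and Bak1 to the left in both genotypes, and Bcl2l1 in WT is farthest left, at a mean of -1.82.

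The other genes of the death pathway were taken as 4 lists of 58 genes, 42 of which were tested. In IL-2, 9 of 42 were called, 4 that rose and 5 that fell, against 19.7% of all genes, and in IL-15, 0 of 42. Among 8 tested further genes of the BCL2 family, 1 fell and none rose. The gene that fell was Bnip3, a BH3-like protein of mitochondria known for mitophagy and for its induction by hypoxia. Its signal was 13.21, 12.16 and 13.00 in WT and 8.14, 9.19 and 8.35 in KO in IL-2, far apart. KO minus WT was -4.23 ± 1.11 (SD, 3 of 3 pairs), an 18.8-fold lower mean (limma adjusted p = 0.003). In IL-15 Bnip3 read 11.44 and 10.93 in WT and 8.42 and 8.93 in KO, again without overlap, a difference of -2.51 ± 0.72 (SD, 2 pairs, limma adjusted p = 0.098).

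The BH3-only genes Pmaip1 and Bmf had large differences that did not pass the test. Pmaip1, which encodes the MCL1 binding protein NOXA, was lower in KO by 1.34 ± 0.62 (SD, 3 of 3 pairs) in IL-2 (limma adjusted p = 0.057). Bmf read 10.11 and 9.80 in WT and 7.51 and 7.83 in KO in IL-15, a difference of -2.29 ± 0.45 (SD, 2 pairs, limma adjusted p = 0.342), whereas its IL-2 pairs scattered around -0.03 ± 2.27 (SD). These 2 genes were picked after their values were seen.

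Of the list of death receptors, which includes the adaptor Tradd, 2 of 4 tested genes rose in IL-2 and none fell, where 19.7% of all tested genes were called. The list median was 1.19 against 0.11 over all genes. Since 1 of the 4, Tnfrsf25, met the requirement for testing through its KO arrays alone, this count and median are no result about the list. Tnfrsf25, the receptor DR3, read 1.99, 2.06 and 0.81 in WT and 6.74, 6.67 and 7.92 in KO in IL-2. Its KO arrays alone were above log2 5, and it rose by 5.49 ± 1.40 (SD, 3 of 3 pairs), at least 4.31-fold (limma adjusted p = 0.004). In IL-15 it read 2.06 and 3.35 in WT and 6.32 and 5.03 in KO, which did not pass the test (limma adjusted p = 0.143). Tnfrsf1a, a receptor of TNF, rose by 1.64 ± 0.79 (SD, 3 pairs, limma adjusted p = 0.020) in IL-2. Tnfrsf21, the receptor DR6, differed by 0.74 ± 0.90 in IL-2 and 1.89 ± 0.03 in IL-15 (SD, limma adjusted p = 0.193 and 0.114), and the adaptor Tradd by 0.06 ± 0.68 in IL-2. Fas and Tnfrsf10b were below the level for testing.

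Among 16 genes of the apoptosome, caspases and their inhibitors, 1 rose and 1 fell in IL-2. Casp6, an executioner caspase, rose by 1.30 ± 0.31 (SD, 3 pairs, limma adjusted p = 0.019), and Birc2, which encodes the ubiquitin ligase cIAP1, fell by 1.20 ± 0.42 (limma adjusted p = 0.036). Among 14 regulators of BCL2 family genes and proteins, 1 rose and 3 fell. Foxo3, a transcription factor known to switch on BH3-only genes, rose by 1.36 ± 0.70 (limma adjusted p = 0.028). Ddit3, the stress factor CHOP, fell by 1.34 ± 0.81 (limma adjusted p = 0.038), Usp9x, a deubiquitinase that stabilises MCL1, fell by 1.23 ± 0.19 (limma adjusted p = 0.021), and Fbxw7, a ubiquitin ligase subunit that marks MCL1 for destruction, fell by 1.16 ± 0.58 (limma adjusted p = 0.037). Of these 9 calls, those of Bnip3 and Tnfrsf25 held under every other setting tried, and each of the other 7 was lost in at least 1 when an array was left out. Without WT or KO replicate 1 in IL-2, 2 of 42 were called, without replicate 2, 3 were, and without either array of an IL-15 pair, 5 were.

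**Figure D5:**
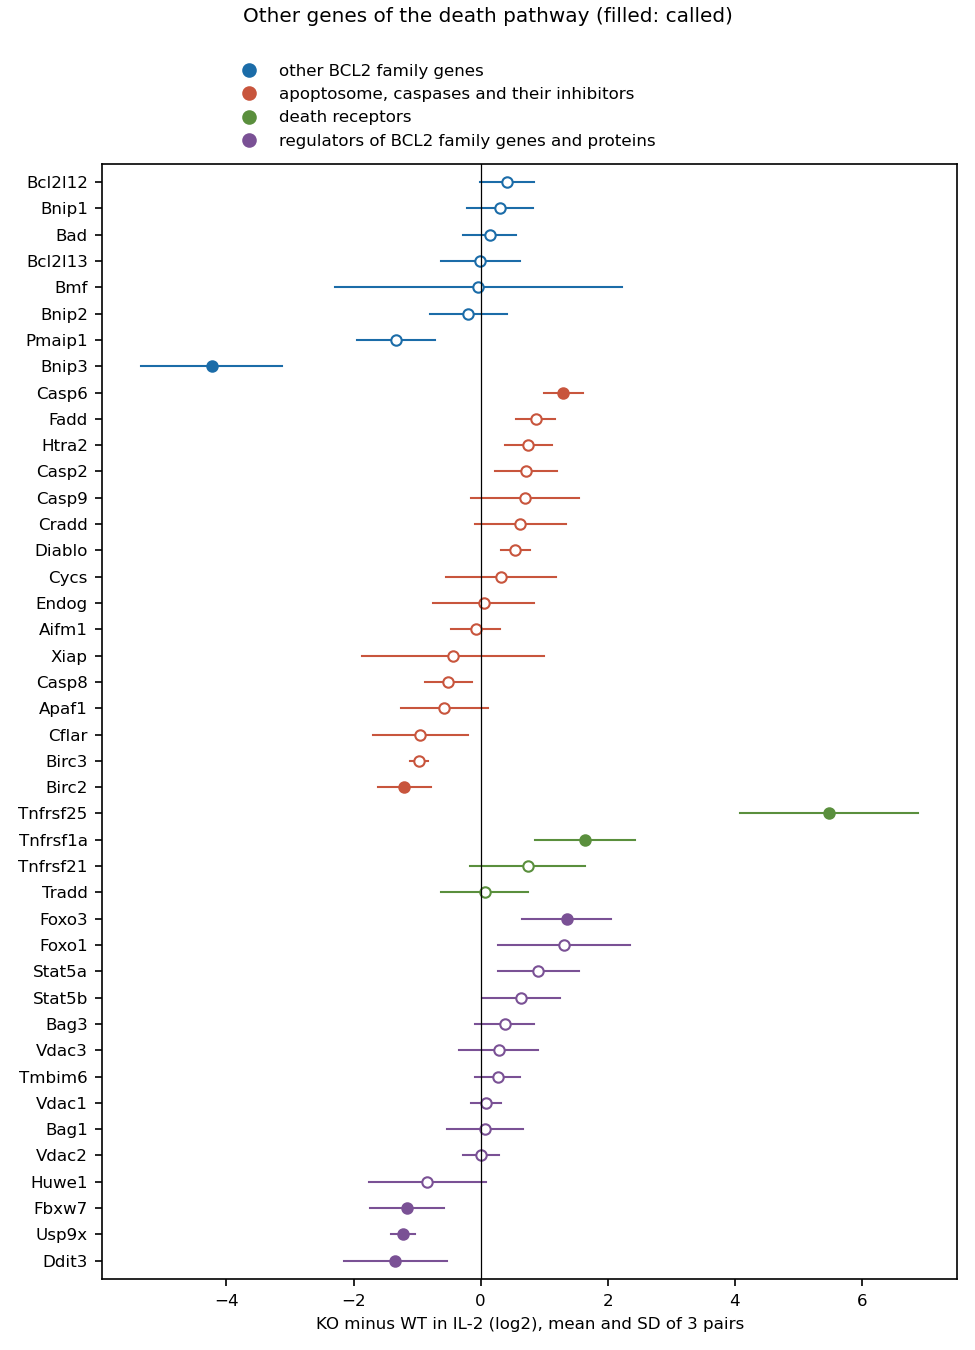
KO minus WT difference in IL-2 (log2, mean and SD of 3 pairs) of 42 tested genes of 4 lists of the death pathway, coloured by list, with filled points for called genes. Bnip3 at -4.23 and Tnfrsf25 at 5.49 lie farthest from 0.

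Genes whose pattern over the 10 arrays was most like that of Bik, by Pearson's r across all tested genes and as a description, were Tnfrsf25 (r = 0.993), Tnfrsf13b (0.990), Jpt1 (0.984), Pole4 (0.981) and Tox (0.980). Those most like Bcl2, the member with the largest IL-15 minus IL-2 difference over both genotypes, were Rsrc1 (0.998), Cyld (0.998), Pum2 (0.998), Ythdc1 (0.996) and Ppp1r12a (0.996). These arrays share their 4 groups and the removal of pair differences, and a high r over 10 arrays is easily reached by genes that follow the groups.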

How the data were processed

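RNA of 10 NKC samples was measured on Affymetrix arrays with 45101 probe sets. The deposited log2 values were made by the authors with GC-RMA in Partek (versions not given in the sources used here). Array medians were 3.20 to 3.37. The removal of pair differences is stated in no source used here. It made the WT plus KO sums of same-numbered arrays equal within 0.00014 in IL-2 and 0.00013 in IL-15, while sums of crossed numbers differed by a median of 0.193 and 0.170, so the number was used as the pair. Of all probe sets, 34958 carry 1 gene symbol, 932 several (not used for genes) and 9211 none here, and 34754 were matched to GRCm38.p6, which changed 0 symbols.

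A gene was its brightest probe set with 1 symbol, tested where it reached log2 5 in at least 2 arrays. KO was compared with WT by limma 3.58.1 (R 4.3.3; 2-sided, lmFit and eBayes, 1 fit of 10 arrays) blocked by pair (3 residual degrees of freedom). Differences are given with the SD over pairs, and p-values were adjusted by Benjamini-Hochberg. Where the dimmer mean was under log2 5, the fold is that of the brighter mean over log2 5, a lower limit. IL-15 and IL-2 were compared without a test. The fit was tested on simulated data. Motifs were searched in the RefSeq promoter windows with Python 3.11.15, and sequence inside the annotated gene is not printed. Named were all members, the called genes of the other lists, all genes of a list with 5 or fewer tested, and the 5 genes most like 2 members, while Pmaip1 and Bmf were added after their values were seen. Members, lists and tests were chosen with earlier results of these data known. Each sample came from its own mouse, but what the arrays of a pair share is not stated.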

Additional observations from a re-analysis of the deposited data

How the results depend on the processing

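In IL-2, 1851 of 9391 genes (19.7%) were called with the replicate block, against 3803 without the block and 3391 at the study's thresholds (unadjusted p). Without a filter on low values 842 of 18194 genes were called, and with each probe set on its own 2830 of 15758 probe sets (18.0%). When arrays were left out in turn, 537 to 1525 genes were called. Members called went from 1 to 2 (Bcl2l2 added) without the block, at the study's thresholds, with arrays centred on their medians and without replicate 2 in IL-2 (1 to 2 over arrays left out). Other pathway genes called went from 9 to 17 at the study's thresholds, 19 without the block, 4 without a filter, 4 with the mean of all probe sets, and 2 to 6 when arrays were left out. In IL-15, 122 genes were called, against 1269 at the study's thresholds, 1321 without the block, 0 without a filter, 44 with the mean of probe sets and 0 to 95 when arrays were left out, and members called went from 0 to 2 (Bik and Bcl2l1) at the study's thresholds and without the block, and pathway genes from 0 to 8 and 7. The IL-15 calls were 43 higher and 79 lower, or 41 and 47 after quantile normalization. For the difference between KO effects, 0 genes became 1106 at the study's thresholds, 1157 without the block, 4 with a stricter filter and 0 to 1 when arrays were left out. Without the block the spread is taken as too small, since pair differences had been removed. For IL-15 against IL-2, 5007 of 9391 genes were apart in WT and 4830 in KO. Each probe set on its own gave 8635 of 15758 probe sets in WT and 8370 in KO. With the mean of probe sets, 6 members were tested, and 3 of 6 in WT and 2 of 6 in KO were apart, in place of 7 of 9 and 5 of 9. Directions turned for small differences only. With the mean of probe sets, Bid was 0.29 in IL-2, Mcl1 -0.0044 in IL-15 and Bid -0.011 for the difference between effects. With arrays left out in turn, Bcl2 ran from -0.45 to 0.10 (without replicate 2), Bid from -0.31 to 0.028 (without replicate 2) and Bbc3 from -0.32 to 0.32 (without replicate 3) in IL-2, and Bid from -0.12 (without replicate 1) to 0.45 in IL-15. For the difference between effects, Mcl1 ran from -0.51 to 0.0084 (without IL-2 replicate 1) and Bak1 from -0.42 to 0.013 (without IL-15 replicate 2). The cause of these changes was not tested. Precision is limited by 2 or 3 pairs and 3 residual degrees of freedom, and 9 of 33 member probe sets were too dim to test.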
